A study of Mus musculus with 6 samples.

Results

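The genes described here are 10 non-classical class I genes of the mouse major histocompatibility complex (MHC), namely H2-Q1, H2-Q2, H2-Q4, H2-Q6, H2-Q7, H2-Q10, H2-T22, H2-T23, H2-T24 and H2-M3, among 40808 gene IDs counted. They were taken by name, and the set was selected on the counts of H2-Q2, which were 0 in every library with Dox. The comparison with and without Dox was therefore part of the choice, and the values of the 10 genes below are a description with no test. RNA came from mouse spleen, 3 libraries labelled as without Dox (replicates 4, 5 and 6) and 3 labelled as treated with Dox (replicates 10, 11 and 12). Per the labels' protocols, all 6 came from leukaemia cells of the spleen in bone marrow recipients. The labels abbreviate Dox and give neither its dose and duration nor the gene it acts on, and genotype, strain, age and sex of donors and hosts are likewise not given. Host cells of the spleen can contribute RNA, and the labels do not say whether leukaemia cells were separated from them. Nothing in the labels says that replicates are separate animals, so errors and p-values measure the spread between libraries, which may be technical.

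Class I molecules are a heavy chain, encoded by these genes, paired with beta-2 microglobulin, the light chain encoded by B2m. The classical heavy chains, H2-K and H2-D, carry peptides of the cell's own proteins to the surface for CD8 T cells, after transport by TAP and loading with the help of tapasin. Non-classical heavy chains are less variable and have more specialised roles. H2-T23 encodes Qa-1, which shows leader peptides of other class I molecules to the NK receptor CD94-NKG2A. H2-M3 presents N-formylated peptides such as those of bacteria and mitochondria. H2-T22 carries no peptide and is a ligand of some gamma-delta T cell receptors. H2-Q6, H2-Q7 and H2-Q9 encode Qa-2 type molecules, which can be held in the membrane by a lipid anchor, and H2-Q10 encodes a secreted form known from liver. H2-Q1, H2-Q2, H2-Q4 and H2-T24 are less well studied. The number and kind of H2-Q and H2-T genes differ between mouse haplotypes.

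Class I promoters share short elements close to the start site, and these are shown for the member without counts after Dox (H2-Q2), a member whose groups overlapped (H2-Q4), the most abundant member with Dox (H2-Q7) and a classical gene (H2-D1). RefSeq, build GRCm38.p6, had a promoter for 8 of the 10 members, with no entry for H2-Q1 and H2-T24. The start used for H2-Q7 lies just inside the gene's annotated span. Each line gives the 250 bases before the annotated start on the plus strand, at chr17:35342057-35342306 for H2-Q2, chr17:35379367-35379616 for H2-Q4, chr17:35438905-35439154 for H2-Q7 and chr17:35262844-35263093 for H2-D1. Capitals mark matches, on either strand, to CCAAT (the Y box core), TGACGC (a form of the X2 box), GAANNGAAA (an interferon response core) or the enhancer A motif (an NF-kappaB type site of 10 bases that opens with GGGG).
H2-Q2: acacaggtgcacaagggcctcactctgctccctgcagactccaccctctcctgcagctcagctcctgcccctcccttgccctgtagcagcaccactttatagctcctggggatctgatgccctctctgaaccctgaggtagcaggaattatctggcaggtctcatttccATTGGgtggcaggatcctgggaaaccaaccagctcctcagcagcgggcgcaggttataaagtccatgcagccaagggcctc
H2-Q4: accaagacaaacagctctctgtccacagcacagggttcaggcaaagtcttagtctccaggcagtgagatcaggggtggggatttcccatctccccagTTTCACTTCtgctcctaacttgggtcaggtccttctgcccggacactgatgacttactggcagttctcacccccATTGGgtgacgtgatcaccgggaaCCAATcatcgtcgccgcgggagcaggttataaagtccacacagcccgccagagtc
H2-Q7: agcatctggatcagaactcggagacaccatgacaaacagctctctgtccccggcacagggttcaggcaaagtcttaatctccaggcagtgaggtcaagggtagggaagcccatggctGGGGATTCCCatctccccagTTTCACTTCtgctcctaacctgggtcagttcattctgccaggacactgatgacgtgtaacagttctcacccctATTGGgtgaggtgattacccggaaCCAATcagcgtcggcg
H2-D1: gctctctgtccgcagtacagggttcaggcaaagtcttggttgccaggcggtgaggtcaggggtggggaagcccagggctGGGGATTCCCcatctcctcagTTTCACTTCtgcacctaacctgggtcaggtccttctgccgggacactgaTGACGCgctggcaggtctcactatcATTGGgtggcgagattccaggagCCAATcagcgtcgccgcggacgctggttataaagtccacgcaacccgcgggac
The H2-Q2 stretch held 1 CCAAT match and none of the other 3 motifs, whereas that of H2-D1 held all 4. Over the window from 250 bases before to 50 after the start, CCAAT was present in 7 of 8 member promoters, against 37.4% of the 32851 promoters of that length. GAANNGAAA was found in 5 of 8 (H2-Q4, H2-Q6, H2-Q7, H2-Q10 and H2-M3), against 7.52% of all promoters. TGACGC occurred in 2 of 8 (H2-Q4, where it lies 30 bases after the start, and H2-M3), against 7.40%. The enhancer A motif occurred in 2 of 8 (H2-Q6 and H2-Q7), against 0.107%. No 2 matches overlapped. Over these 250 bases H2-Q2 was 58.3% identical to H2-Q4, 56.1% to H2-D1 and 49.6% to H2-Q7, and H2-Q4 was 75.9% identical to H2-D1. A match describes letters in the reference only, and the haplotype of these mice is not stated.

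The libraries held 5541486 to 8725767 counts. Levels are given as normalised CPM (counts per common library size, after TMM factors that correct for library composition). The kit primes at the poly(A) tail and makes about 1 fragment per transcript, so CPM were compared between genes without a length term. A count of 3, the upper limit that a count of 0 allows for counting error, corresponded to 0.309 to 0.608 CPM. Gene by gene, edgeR's quasi-likelihood test with Benjamini-Hochberg adjustment and a threshold of 0.05 called 6438 of 14110 tested genes, or 45.6%, 23.6% of tested genes being higher with Dox and 22.1% lower. All 10 members passed the filter on low counts. By the same rule 3 of them were higher (H2-Q6, H2-Q7 and H2-T24), 2 lower (H2-Q1 and H2-Q2) and 5 not called. The median log2 fold change was 0.84 over the 10 members and 0.07 over all tested genes. Because the comparison was used to pick the set, nothing is read from these counts. With at least 10 counts required in every library, H2-Q1, H2-Q2, H2-Q6 and H2-Q10 were not tested and 2 members were called. Without Dox replicate 12, H2-Q4 and H2-T22 were called as well, giving 7.

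RNA levels of T cell, B cell and myeloid markers differed along with Dox, and the other marker lists were mixed. Summed CPM of 8 T cell markers were 1669 to 1763 without Dox and 133 to 144 with Dox, and all 8 were lower. The 8 B cell markers were all higher, with sums of 27.9 to 34.9 without Dox and 1670 to 1797 with Dox. Myeloid markers summed to 151 to 165 and 1869 to 1999.8, with 7 of 8 higher and Ly6g at 0 in every library without Dox. Markers of macrophages and dendritic cells summed to 482 to 580 and 560 to 764, ranges that overlapped. Of these 8 markers 2 were higher and 2 lower, near the shares of all tested genes given below. Endothelial and stromal markers summed to 196 to 221 and 305 to 393, with 3 of 8 higher and 2 lower. Erythroid markers summed to 57435 to 62708 and 69775 to 75149, with 3 of 6 higher and 2 lower. Of 6 NK cell markers 3 were tested, 1 being higher, 1 lower and 1 not called. Their sums were 347 to 398 without Dox and 10.29 to 22.999 with Dox. Gzma made up most of the sum without Dox, at 363 CPM on average, and was at 0 in every Dox library. Eomes, also expressed by NK cells, was at 0.610 CPM without Dox and 9.34 with Dox. The marker calls are from edgeR's quasi-likelihood test at the threshold above, by which 23.6% of all tested genes were higher and 22.1% lower. Their part in the values of the class I genes was not tested, and in bulk RNA fewer cells of a type and less RNA per cell cannot be told apart.

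H2-Q2 lies at chr17:35342307-35346764 (GRCm38.p6), in the H2-Q gene row. Libraries without Dox held 345, 216 and 247 of its reads, and those with Dox held 0, 0 and 0. In CPM these were 51.5, 43.8 and 41.9, a mean of 45.7 ± 5.09 (SD, n = 3), and the level with Dox was at least 123-fold lower, taken against 3 counts per library. It was the most abundant of the 10 genes in the libraries without Dox and below detection at this depth in the others. Its neighbour H2-Q1 (chr17:35320525-35328142) had 46, 38 and 51 counts without Dox and again 0 in all 3 Dox libraries. Its level was 7.74 ± 0.891 CPM (SD, n = 3) without Dox and at least 20.9-fold lower with Dox.

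Going from at least 30 counts in every library of 1 group to 0 in every library of the other was rare in the table. It applied to 34 of 9032 genes (0.376%) in the direction of H2-Q2 and to 17 of 9715 (0.175%) in the reverse direction. Of the 34, 5 lie on chromosome 17 and 4 on the Y chromosome. H2-Q1, H2-Q2, H2-T3 and Gm8909 were 4 of the 14 class I genes on the RefSeq map of chromosome 17 that reached 30 counts in each library without Dox. The set was chosen on this property of H2-Q2, and Gm8909 was added after its values were seen, so nothing is read from this count. The genes whose pattern over the 6 libraries was nearest to that of H2-Q2, by root-mean-square distance of centred log2 CPM, were Ddx3y at 0.098 and Eif2s3y at 0.18, both on the Y chromosome, then Gm3521 at 0.23, 1500009L16Rik at 0.26 and D430041D05Rik at 0.30. H2-Q2 was chosen on its 0 counts with Dox, and among genes at 0 there this distance mostly follows the level without Dox. That level averaged 46.6 CPM for Ddx3y and 45.7 for H2-Q2, so the nearness is a description only. Ddx3y, an RNA helicase gene, had 313, 223 and 283 counts without Dox and 0 in each Dox library. Eif2s3y, a translation initiation factor gene, had 253, 171 and 208 counts and likewise 0. Counts of Ddx3y and Eif2s3y were thus found only in libraries without Dox, so the presence of these Y-linked transcripts and the Dox label cannot be told apart.

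H2-Q7 (chr17:35439140-35443773), a Qa-2 gene, had 146, 115 and 130 counts without Dox and 2415, 2858 and 1323 with Dox. Its CPM were 21.8, 23.3 and 22.04 against 329, 294 and 174, so the groups did not overlap. The means were 22.4 ± 0.814 and 265.7 ± 81.0 CPM (SD, n = 3 per group), and the log2 fold change was 3.57 ± 0.26 (SE). Its reads cannot be assigned with certainty. The separately listed copy H2-Q9 had 148, 113 and 130 counts without Dox and exactly the counts of H2-Q7 in all 3 Dox libraries, and it was the nearest gene in pattern, at a distance of 0.013. The next nearest were H2-Aa, a class II gene, at 0.14, Gm39393 at 0.14, Sbk3 at 0.15 and 6430548M08Rik at 0.16. Gm39393 had 22, 27 and 13 counts with Dox and Sbk3 had 21, 30 and 12, both with 0 in each library without Dox. Their distance therefore depends on the small count added before taking logs. H2-Aa averaged 63.8 CPM without Dox and 758 with Dox.

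H2-Q6 (chr17:35424850-35430055), another Qa-2 type gene, had only 6, 9 and 7 counts without Dox and 86, 233 and 104 with Dox. Its level was 1.30 ± 0.475 CPM without Dox and 16.5 ± 6.59 with Dox (SD, n = 3 per group), and the log2 fold change was 3.67 ± 0.52 (SE), with no overlap between groups. H2-Q4 (chr17:35379617-35384674) showed no such separation. It had 80, 66 and 101 counts without Dox and 320, 220 and 87 with Dox, or 11.9, 13.4 and 17.1 CPM against 43.5, 22.6 and 11.5. Dox replicate 12 lay below every library without Dox while replicate 10 lay highest. The log2 fold change was 0.87 ± 0.45 (SE), 0.25 without Dox replicate 10 and 1.21 without Dox replicate 12. The secreted form H2-Q10 (chr17:35470089-35474563) was low throughout, with 12, 4 and 23 counts without Dox and 38, 48 and 14 with Dox. The groups overlapped, at 2.17 ± 1.58 and 3.99 ± 1.86 CPM (SD, n = 3 per group). The liver genes Alb, Apoa1 and Ttr together were at 0 without Dox and at 0 to 1.09 CPM with Dox.

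H2-T24 (chr17:36003471-36020800) had 166, 128 and 180 counts without Dox and 1041, 1476 and 925 with Dox. In CPM these were 24.8, 25.9 and 30.5 against 142, 152 and 122, and every Dox library was above every library without Dox. The log2 fold change was 2.35 ± 0.19 (SE), with the smallest standard error of the 10 genes. H2-T22 (chr17:36037128-36042742), the gamma-delta receptor ligand, had 239, 155 and 201 counts without Dox and 557, 863 and 88 with Dox. Its CPM of 35.7, 31.4 and 34.1 without Dox lay between those of the Dox libraries, 75.8, 88.8 and 11.6. Dox replicate 12 was thus below, and the other Dox libraries above, all libraries without Dox. The log2 fold change of H2-T22 was 0.80 ± 0.55 (SE), 0.35 without Dox replicate 11 and 1.27 without Dox replicate 12.

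H2-T23 (chr17:36029977-36032701), the Qa-1 gene, had 49, 24 and 50 counts without Dox and 51, 57 and 60 with Dox. Its levels were 6.88 ± 1.84 and 6.90 ± 1.02 CPM (SD, n = 3 per group), and the sign of its difference changed between processing alternatives. H2-M3 (chr17:37270234-37274485), which presents N-formylated peptides, had 55, 34 and 52 counts without Dox and 82, 30 and 41 with Dox. At 7.97 ± 0.984 and 6.55 ± 4.16 CPM (SD, n = 3 per group), its groups overlapped, and the Dox libraries ranged from 3.09 to 11.2 CPM. The log2 fold change of H2-M3 was -0.29 ± 0.54 (SE), -0.94 without Dox replicate 10 and 0.03 without Dox replicate 11. The 5 members whose groups did not overlap, 3 higher and 2 lower, compare with 59.6% of all tested genes, 30.0% higher and 29.6% lower.

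**Figure D1:**
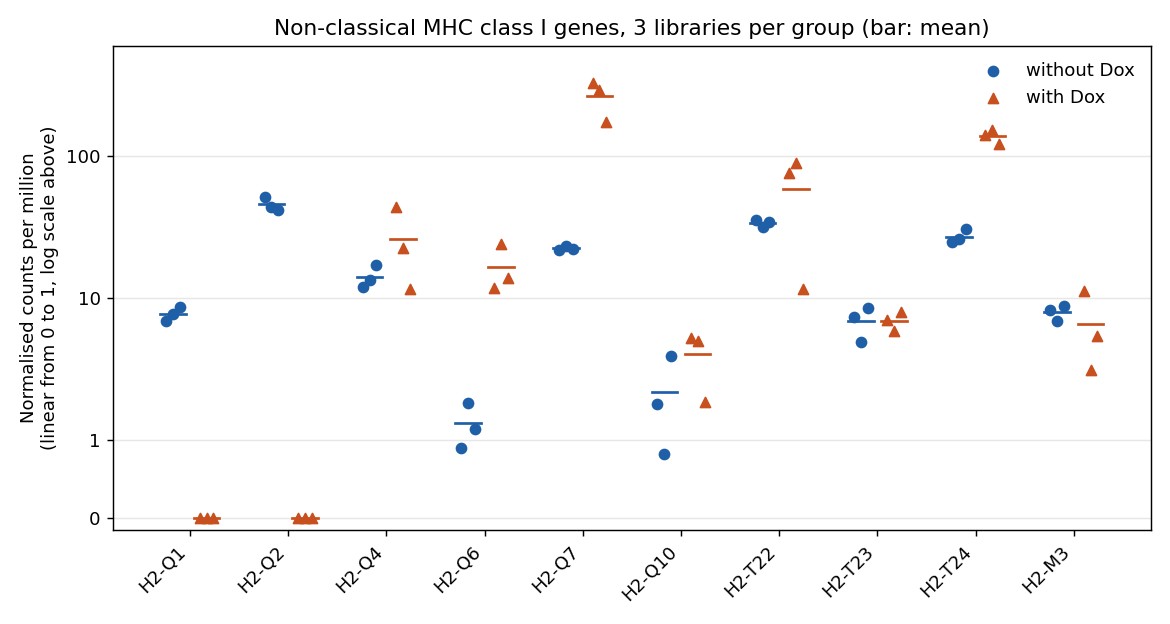
Normalised CPM of the 10 non-classical class I genes, with 1 point per library and a bar at the mean of the 3 libraries of each group. H2-Q1 and H2-Q2 sit at 0 in all Dox libraries, whereas H2-Q6, H2-Q7 and H2-T24 are higher in every Dox library than in any library without Dox.

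The rank order of the members differed between the groups. Without Dox, H2-Q2 came first at 45.7 CPM, then H2-T22 at 33.7, H2-T24 at 27.1, H2-Q7 at 22.4 and H2-Q4 at 14.1, and the ranges of neighbours in this order were apart. H2-M3, H2-Q1 and H2-T23 followed with overlapping ranges, and H2-Q10 and H2-Q6, again overlapping, were lowest. With Dox, H2-Q7 at 265.7 CPM and H2-T24 at 138.5 were first and apart from the rest. H2-T22, H2-Q4 and H2-Q6 overlapped along that order, as did H2-T23, H2-M3 and H2-Q10 below them. Of the 8 members with counts in Dox libraries, 5 were lowest in Dox replicate 12 (H2-Q4, H2-Q7, H2-Q10, H2-T22 and H2-T24). That library was the lowest with Dox for 34.3% of all tested genes. Of the 16 classical and loading genes, 10 were lowest there, H2-K1, H2-D1 and B2m among them, and 5 were highest there, such as Tap1 and Calr.

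Expressed as shares of the members' own counts, H2-Q2 supplied 30.2%, 27.4% and 23.7% without Dox and 0% with Dox. H2-Q7 supplied 12.8%, 14.6% and 12.5% without Dox and 52.6%, 49.4% and 50.1% with Dox. H2-T24 went from 14.5%, 16.2% and 17.3% to 22.7%, 25.5% and 35.0%. H2-T22 went from 20.9%, 19.6% and 19.3% to 12.1%, 14.9% and 3.33%, lowest in Dox replicate 12. In total the members held 0.0148%, 0.0142% and 0.0164% of all counts without Dox and 0.0706%, 0.0663% and 0.0373% with Dox. Set against the classical genes, they were 28.9%, 23.4% and 22.4% of the joint counts without Dox and 16.4%, 16.8% and 14.7% with Dox. The summed level of the 6 H2-Q members was 93.4 ± 2.29 CPM without Dox and 312 ± 98.3 with Dox (SD, n = 3 per group), so that the loss of H2-Q1 and H2-Q2 counts went along with a higher total.

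**Figure D2:**
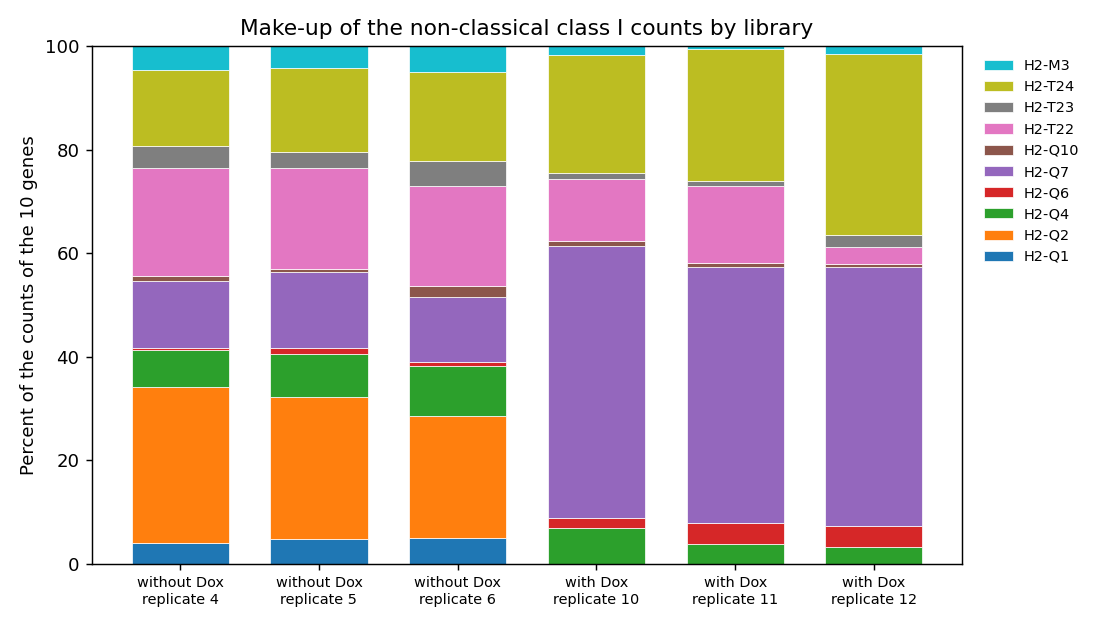
Share of each gene in the counts of the 10 non-classical class I genes, in percent, with 1 stacked bar per library. H2-Q2 makes up 23.7% to 30.2% of the bars without Dox and none of those with Dox, where H2-Q7 makes up 49.4% to 52.6%.

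Along chromosome 17 the RefSeq table places 35 class I genes, of which 34 were in the count table and 8 had 0 counts in all 6 libraries. Of the 25 with counts in at least 1 library without Dox, 8 were at 0 in every Dox library, a pattern shared by 18.9% of the 24639 genes with such counts. The reverse was found for 1, H2-M10.1. These 8 form 2 places on the map, H2-Q1 with H2-Q2 at one end of the H2-Q row, and a stretch of the H2-T row. From Gm6034 to H2-T3 there are 9 genes, and 6 of them were at 0 in every Dox library. For 4 of these (Gm6034, Gm11127, H2-Bl and Gm7030) the libraries without Dox held at most 14 counts each, so that 0 with Dox says little. The genes of this stretch with the prefix Gm were chosen after their values were seen and are given without a test. Gm8909 had 202, 156 and 158 counts without Dox and 0 with Dox, and Gm10499 had 43, 58 and 51 against 0, 0 and 1. H2-T3, the gene of the thymus leukaemia antigen, which binds CD8 alpha-alpha, had 158, 123 and 136 counts without Dox and 0 in each Dox library. Its level was at least 64.3-fold lower with Dox. It passed the filter on low counts only through the libraries without Dox, so its call below is not read as support. Within the stretch, H2-T10 was listed with 46, 121 and 43 counts with Dox, but most of its 3′ end is shared with H2-T22. H2-T22, H2-T23 and H2-T24, the next genes towards the H2-Q row, all kept counts with Dox. Of 2 symbols listed because of variation between strains, H2-Ea was in the table and H2-Ea-ps was not. H2-Ea, a class II gene that is not expressed in some haplotypes, had 1, 0 and 0 counts without Dox and 0, 15 and 0 with Dox. Its partner H2-Eb1 had 297, 242 and 368 counts without Dox and 3611, 4497 and 2233 with Dox. The part of haplotype in these counts was not tested.

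**Figure D3:**
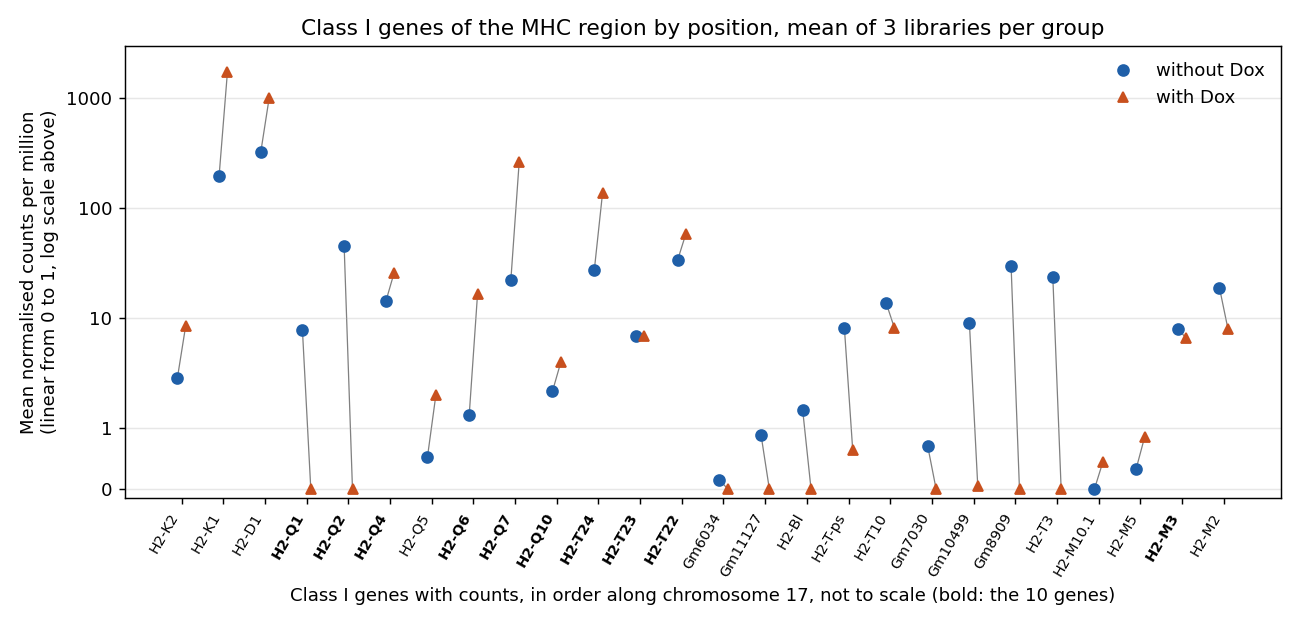
Mean normalised CPM of 3 libraries per group for each class I gene with counts, in order along chromosome 17 and not to scale, on an axis linear from 0 to 1 and logarithmic above. H2-Q1, H2-Q2, Gm8909 and H2-T3 drop to 0 with Dox, while H2-K1, H2-D1, H2-Q7 and H2-T24 between and beside them are higher.

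Because the libraries read the 3′ end, the last 400 bases of each member's reference transcript were compared with all other transcripts of the GENCODE M21 set, in words of 50 bases. H2-Q2 had 96.9% of its 351 words in no other gene. H2-Q7 and H2-Q10 reached 99.4%, and H2-T24 and H2-M3 100%, although H2-Q9 was not in the transcript set and so does not count against H2-Q7. H2-Q1 had 76.9%, the other 23.1% being shared with H2-Q2. H2-T22 had the lowest value, 36.5%, since 63.5% of its words also occur in H2-T10, and the ends of these genes are 98.5% identical. H2-Q4, H2-Q6 and H2-T23 were at 61.5%, 59.8% and 63.8%, most of their shared words lying in genes outside the class I family. Reads from the shared part of H2-T22 and H2-T10 therefore cannot be told apart by sequence, and how such reads were counted is not given. H2-T10 itself had 104, 55 and 87 counts without Dox and 46, 121 and 43 with Dox, with overlapping groups.

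**Figure D4:**
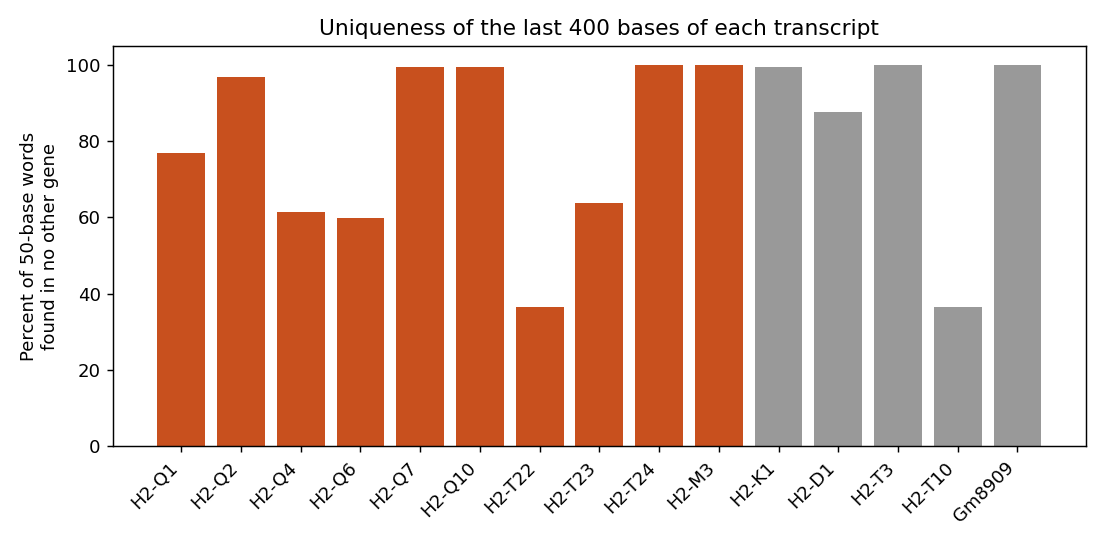
Percent of the 50-base words in the last 400 bases of each gene's reference transcript that occur in no other gene, with non-classical genes described here in colour and other class I genes in grey. H2-Q2 stands at 96.9%, H2-Q1 at 76.9% and H2-T22 at 36.5%.

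Both classical genes in the table were higher with Dox. H2-K1 was at 195 ± 18.5 CPM without Dox and 1726 ± 256 with Dox (SD, n = 3 per group), and the log2 fold change was 3.14 ± 0.17 (SE, edgeR adjusted p = 1.73e-06). H2-D1 was at 323 ± 77.8 and 999 ± 369 CPM, a log2 fold change of 1.63 ± 0.29 (SE, edgeR adjusted p = 0.00125). In the deposited table H2-Q1 and H2-Q2 thus went to 0 while these genes, which flank the H2-Q row or lie beyond it, were 3.14 and 1.63 higher on the log2 scale. B2m, the light chain shared by all of them, was at 1850, 2305 and 2271 CPM without Dox and 7418, 4923 and 2156 with Dox. Its log2 fold change was 1.17 ± 0.35 (SE, edgeR adjusted p = 0.0197), but Dox replicate 12 lay within the range without Dox. This call was lost without no_Dox replicate 4, 5 or 6 (edgeR adjusted p = 0.0940, 0.0630 and 0.0854) and without Dox replicate 10 or 11 (0.0985 and 0.0523).

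Of 14 genes for the light chain and peptide loading, 5 rose with Dox, 5 fell and 4 did not pass edgeR's test, beside 23.6% of all tested genes higher and 22.1% lower. The median log2 fold change was -0.27, against 0.07 over all tested genes. This list and the lists below were chosen with earlier results of these data known, so their counts and p-values are a description. Those that rose were B2m, Tap1, Tapbp, Calr and Psme2, and those that fell were Tap2, Psmb8, Tapbpl, Pdia3 and Erap1. The Psme2 call was lost without no_Dox replicate 4 or 6 (edgeR adjusted p = 0.0520 and 0.0696), and the Erap1 call without no_Dox replicate 4 (0.0527). Both subunits of the peptide transporter, Tap1 and Tap2, moved, and they did so in opposite directions. Tap1 was at 24.3 ± 1.03 CPM without Dox and 72.7 ± 11.8 with Dox, a log2 fold change of 1.58 (edgeR adjusted p = 0.000196). Tap2 was at 235 ± 81.7 and 42.5 ± 35.1 CPM, a log2 fold change of -2.47 ± 0.63 (SE, edgeR adjusted p = 0.00959), or -3.25 without Dox replicate 10. Tapbp, which encodes tapasin, rose by 1.64 (edgeR adjusted p = 7.00e-05), whereas Tapbpl, its relative, fell by 1.40 (edgeR adjusted p = 0.00123). Psmb8, a subunit of the immunoproteasome that cuts peptides, fell by 1.83 on the log2 scale (edgeR adjusted p = 3.09e-05).

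Among 16 transcriptional regulators of class I genes and interferon responses, 8 rose, 1 fell and 7 did not pass, beside 23.6% of all tested genes higher and 22.1% lower. The median log2 fold change was 0.66 in the list and 0.07 over all tested genes. Because earlier results were known when the list was made, nothing is read from these counts. Nlrc5, the class I transactivator, had 23, 9 and 22 counts without Dox and 129, 76 and 260 with Dox, highest in Dox replicate 12. Its log2 fold change was 2.71 ± 0.58 (SE, edgeR adjusted p = 0.00372), or 2.05 without Dox replicate 12. With limma-voom its adjusted p was 0.0644. Ciita, the class II transactivator, rose by 4.23 (edgeR adjusted p = 3.09e-06) and Stat2, of the interferon pathway, by 2.09 (edgeR adjusted p = 0.00133). Nfkb1, an NF-kappaB subunit, was the 1 gene of the list that fell, by 1.15 (edgeR adjusted p = 0.0103).

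**Figure D5:**
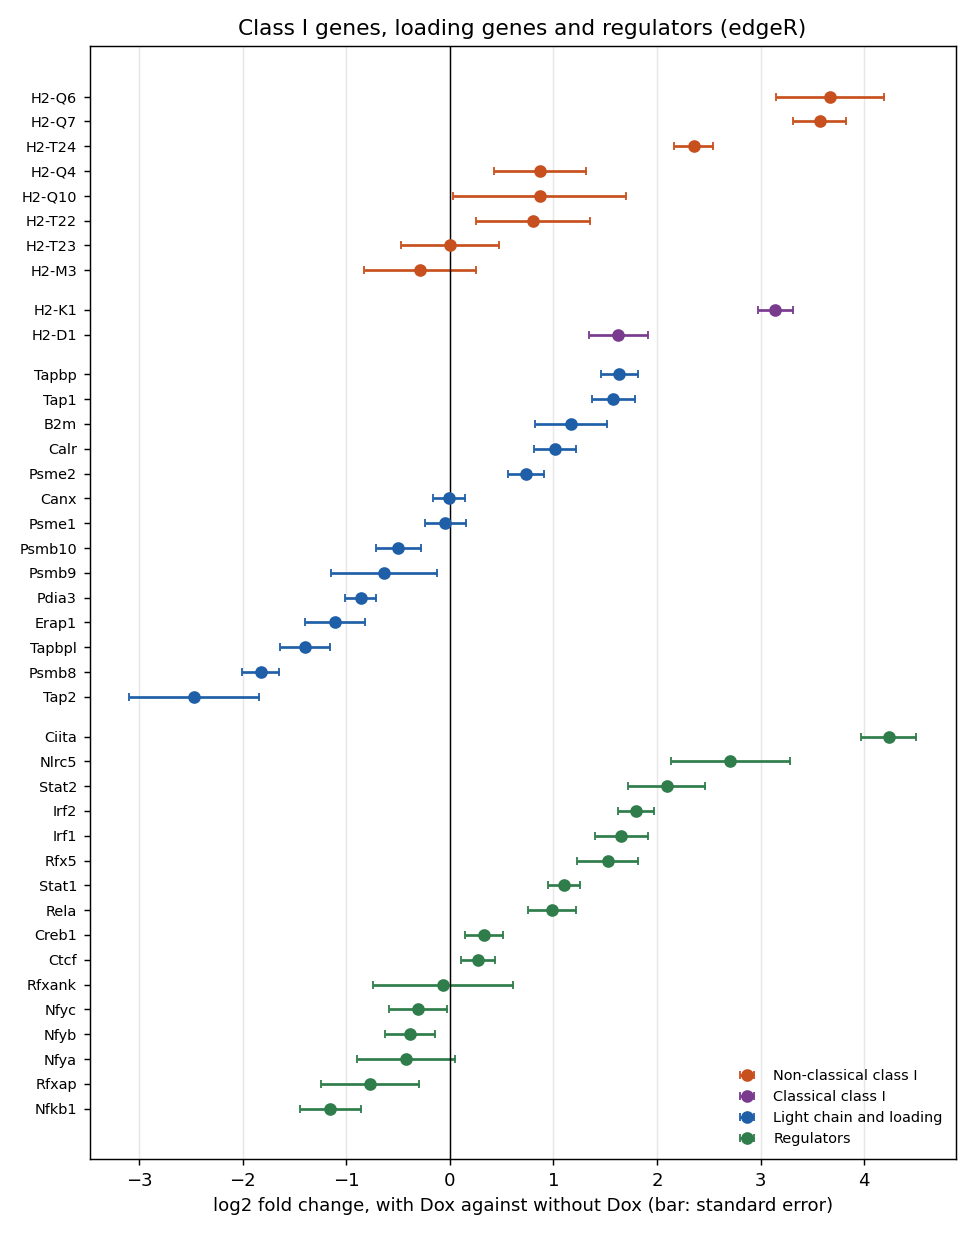
Log2 fold change with Dox against without Dox for class I genes, loading genes and regulators, with bars of 1 standard error. H2-Q1 and H2-Q2, which had no counts in the Dox libraries and would lie furthest left, are not drawn. H2-Q7 at 3.57 and H2-K1 at 3.14 lie to the right, whereas Tap2 at -2.47 and Psmb8 at -1.83 lie to the left.

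Of 21 receptors and coreceptors of class I molecules, 8 had enough counts to test, and 3 rose, 3 fell and 2 did not pass, beside 23.6% of all tested genes higher and 22.1% lower. Cd8a and Cd8b1, the chains of the CD8 coreceptor, fell, with log2 fold changes of -3.76 (edgeR adjusted p = 2.18e-05) and -3.23 (edgeR adjusted p = 0.000142), along with the T cell markers. Without Dox replicate 11 that of Cd8b1 was -3.91. Pira2 and Pirb, paired immunoglobulin-like receptors of myeloid and B cells, rose by 2.86 (edgeR adjusted p = 1.14e-05) and 2.78 (edgeR adjusted p = 2.37e-05), along with the markers of those cells. Klrd1, the CD94 chain of the Qa-1 receptor, had 0, 4 and 0 counts without Dox and 33, 58 and 19 with Dox, a log2 fold change of 4.03 ± 1.32 (SE, edgeR adjusted p = 0.0306). That call was lost without no_Dox replicate 4 or 6 (edgeR adjusted p = 0.132 and 0.118) and without Dox replicate 10 or 11 (0.0705 and 0.0682). Without no_Dox replicate 5, the 1 library of its group with Klrd1 counts, the log2 fold change was 7.996. Klrc1, the NKG2A chain, had 0 counts in each library without Dox and 97, 20 and 10 with Dox. It was not tested, and its level was at least 10.598-fold higher, taken against 3 counts per library, or at least 3.24-fold without Dox replicate 10. Cd160 fell by 1.32 (edgeR adjusted p = 0.0304), a call lost without no_Dox replicate 4, 5 or 6 (edgeR adjusted p = 0.0577, 0.0674 and 0.0773) and without Dox replicate 11 (0.0579). It was lost as well with scaling by library size only (0.0730).

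Outside the MHC, 6 of 11 class I-like genes were tested, and 2 rose, beside 23.6% of all tested genes. Procr, the endothelial protein C receptor gene, rose by 1.46 (edgeR adjusted p = 0.0387), but the call was lost in each fit without 1 library except that without Dox replicate 12, at adjusted p of 0.0782 to 0.155. It was also lost with limma-voom (adjusted p = 0.0711) and with no low-count filter in edgeR (0.0902). Cd1d1, which presents lipids to NKT cells, rose by 1.19 (edgeR adjusted p = 0.0181), a call lost without no_Dox replicate 5 or 6 (edgeR adjusted p = 0.118 and 0.0977) or with no low-count filter (0.0730). Among the 21 other class I genes listed for the MHC region, 18 were in the table and 6 were tested, of which 1 rose (H2-Q9), 3 fell and 2 did not pass (H2-T10 and H2-K2), beside 23.6% of all tested genes higher and 22.1% lower. Besides H2-T3, those that fell were H2-T-ps, with a log2 fold change of -3.58 (edgeR adjusted p = 0.0200), and H2-M2, with -1.21 (edgeR adjusted p = 0.0374). The H2-T-ps call was lost without no_Dox replicate 4 or 6 (edgeR adjusted p = 0.0905 and 0.0764) and without Dox replicate 10 (0.0511), and without Dox replicate 11 the log2 fold change was -5.76. The H2-M2 call was lost without no_Dox replicate 4, 5 or 6 (edgeR adjusted p = 0.109, 0.0826 and 0.0732) and without Dox replicate 10 or 12 (0.0901 and 0.0592). Upper-quartile factors (edgeR adjusted p = 0.0517) and scaling by library size only (0.108) lost it too, and without Dox replicate 11 the log2 fold change of H2-M2 was -1.80.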

How the data were processed

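Spleen mRNA was sequenced from 3′ ends (QuantSeq forward kit, per the labels' protocols). The authors deposited 1 table of raw counts per Entrez gene ID, with no pooling. The submitters' processing notes name STAR, featureCounts and GRCm38, without versions. Annotation, strand setting and the handling of reads mapping to several places are not given in the sources used here, so near-identical copies are uncertain. All columns matched a sample title, and 0 were left over. RefSeq GRCm38.p6 gave symbols for 39374 of 40808 IDs. Counts were filtered (filterByExpr, minimum 10, total 15), TMM-scaled and tested over all 6 libraries with edgeR 4.0.16 in R 4.3.3 (quasi-likelihood, no covariate, Benjamini-Hochberg over 14110 genes), after a test on simulated counts. Distances used log2 CPM with prior count 2.

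Of 153 list entries, 5 were not found. Members and lists were chosen with earlier results of these data known, so the calls counted in each list, the marker lists included, are not independent support. Named genes are the members, H2-K1, H2-D1, B2m, Klrd1, Klrc1, Nlrc5, up to 3 called genes per direction and pathway list, and the 5 nearest in pattern to H2-Q2 and to H2-Q7. The other called loading genes, map, marker and shared-copy genes, H2-Ea and H2-Eb1 were named in addition. Alternatives were other scalings (RLE, upper quartile, library size only), filters, DESeq2 1.42.0, limma-voom (limma 3.58.1), a threshold of 0.01, leaving out abundant gene classes, and leaving out each library. For the lower bounds on folds, leaving out each library was chosen after seeing the data.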

Additional observations from a re-analysis of the deposited data

How the results depend on the processing

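The members were picked on this comparison, and H2-Q1, H2-Q2, H2-Q6 and H2-Q10 pass the filter only through part of the libraries, so their number past the threshold says nothing of stability. It was 2 of 6 with at least 10 counts required in every library. Leaving out 1 library at a time gave 5 to 7 called members, 4794 to 7025 called genes and 7 to 11 called loading genes. With scaling by total counts alone, the log2 fold change of the median gene differed by 0.31, and the share of calls that were higher with Dox went from 51.6% to 64.3%. That share was 44.7% with no low-count filter and 45.1% with limma-voom. With total counts alone, H2-M3 was at 0.03 on the log2 scale. H2-T23 ranged from -0.26 to 0.31 over the alternatives. No paired analysis was possible because no replicate number occurs in both groups. At this depth, levels of H2-Q1 and H2-Q2 under 0.309 to 0.408 CPM could not be detected with Dox. With groups of 3, no library was tested as an outlier.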
